A study of Homo sapiens with 16 samples.

Results

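TCCSUP is an established human bladder cancer cell line, labelled wild type, and its response to CM-1758, a histone deacetylase (HDAC) inhibitor, is described here across genes. The 4 TCCSUP libraries, taken by their sample labels, are among 16 RNA-seq libraries, the others coming from the bladder cancer lines 253J, J82 and RT112. Both TCCSUP control libraries came from cells given the vehicle (0.01% DMSO) and both treated libraries from cells given CM-1758 for 48 h at the IC50 of this line (the half-maximal inhibitory concentration), begun the day after seeding. TCCSUP cells grew in EMEM and the other lines in DMEM, all with fetal bovine serum, so cell line and medium cannot be told apart when lines are compared. The dose also differed between lines, since each received its own IC50. The study describes the libraries of a group, all of 1 line, as independent biological replicates. P-values therefore measure the spread between cultures within groups, with the estimate shared over the groups of all 4 lines.

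HDACs remove acetyl groups from histones, and their inhibitors leave histones acetylated, which goes with both activation and loss of transcription. The extracellular matrix is the network of collagens, glycoproteins and proteoglycans that cells secrete. Fibrillar collagens are folded in the endoplasmic reticulum (ER) with the help of dedicated chaperones and are cross-linked outside the cell by lysyl oxidases. Mesenchymal cells make most of this matrix in a tissue, and carcinoma cells that have taken on mesenchymal features can express the same genes.

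The control libraries of TCCSUP held 28033920 and 28809324 counts on 20312 and 20400 genes, and the treated libraries 23975428 and 22506431 counts on 24675 and 24905 genes. Counts were compared by the quasi-likelihood test of edgeR, with Benjamini-Hochberg adjustment of p over the 21297 genes that passed a filter on low counts, of 35993 gene symbols. "Rose" and "fell" mean an adjusted p under 0.01, and a strong change also has a log2 fold change above 2 or below -2. CPM are counts scaled to a library total of 1000000 after TMM normalization. A set of 7 small noncoding RNA genes took 12.4% and 12.1% of the control counts and 19.3% and 21.3% of the treated counts, and leaving these genes out gave 3029 strongly higher and 703 strongly lower genes. Scaling by library size alone moved the median log2 fold change of all tested genes from 0.20 to 0.51, a shift of 0.31, so smaller changes depend on the scaling.

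The control cells carried a mixed set of identity markers. Of 22 urothelial markers, 12 reached 1 CPM in control, with KRT18 (a simple-epithelium keratin) at 969 CPM and PPARG (a urothelial transcription factor) at 88.9 CPM. Together the 22 held 1359 and 1480 CPM in control and 625 and 535 CPM with CM-1758, and 5 fell while 3 rose. The uroplakins UPK1A, UPK2 and UPK3A and the keratins KRT5 and KRT20, which define differentiated or basal urothelium, had 0 to 10 counts in each control library. The uroplakin UPK1B had 49 and 20 control counts and UPK3B 22 and 22. All 14 mesenchymal markers reached 1 CPM in control, and together they held 9404 and 9672 CPM in control and 1142 and 1018 CPM with CM-1758. VIM (vimentin, the intermediate filament of mesenchymal cells) was low among them, at 3.85 CPM in control and 14.7 CPM with CM-1758. In bulk RNA, fewer cells of a type and less RNA per cell cannot be told apart. Of 9 leukocyte markers the sum was 39.7 and 41.5 CPM in control and 22.7 and 29.3 CPM with CM-1758, with CD3E and MS4A1 at 0 in control. PTPRC, the pan-leukocyte phosphatase CD45, had 218 and 275 counts in control and 26 and 32 with CM-1758, 8.58-fold lower. The monocyte markers CD14 (296 and 272) and CD68 (489 and 537) had control counts too and did not pass, while CD3D, LYZ and ITGAM rose from 0. Of 6 endothelial markers the sum was 227 and 194 CPM in control and 18.3 and 20.3 CPM with CM-1758. In control nearly all of this sum was TEK, an angiopoietin receptor, while PECAM1, KDR and CLDN5 had 0 to 2 counts in each library. TEK was the only member that fell, from 5707 and 5031 counts to 338 and 355. VWF rose from 29 and 14 counts to 99 and 99, and KDR from 1 and 0 to 23 and 31.

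CM-1758 raised many genes that TCCSUP control cells hardly express and lowered many of the genes they express most. Strong changes numbered 3028 higher genes (14.2% of those tested) and 704 lower genes (3.31%), and with no limit on the fold change 5040 rose (23.7%) and 3673 fell (17.2%). The higher genes made up 81.1% of the strong changes and 57.8% of all changes, and 88.1% and 74.4% with scaling by library size alone. Of the strongly higher genes, 1276 had no count in either control library and 1654 had 3 counts or fewer in each. Directions differed with the level of the gene. Below a mean of 1 CPM over the TCCSUP libraries, 1381 genes were strongly higher and 46 lower. Among the 1959 genes at 100 CPM or more, 14 were strongly higher and 150 lower, and 150 rose while 882 fell, with a median log2 fold change of -0.46. Counts of the treated and control libraries did not overlap for 78.5% of all tested genes, so a lack of overlap is common in this comparison.

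**Figure D1:**
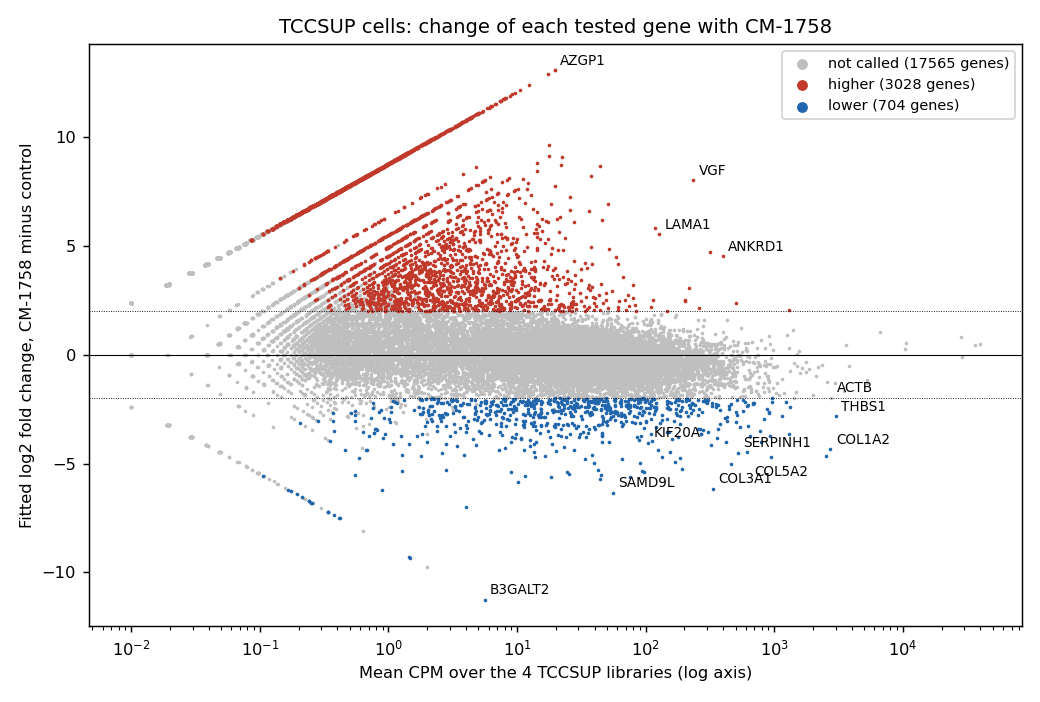
Fitted log2 fold change of CM-1758 against control in TCCSUP (vertical axis) against the mean CPM of the 4 libraries (horizontal axis, log scale), 1 point per tested gene; red and blue mark strong changes and dotted lines the limits of 2 and -2. The 3028 higher genes lie mostly at low CPM, where the parallel lines of points come from genes with the same few control counts, while the 150 strongly lower genes at 100 CPM or more include COL1A2, COL5A2 and THBS1.

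Most of the genes with the highest ratios went from almost no counts to a clear signal in both treated libraries. KIF1A, a kinesin that carries synaptic vesicle precursors along axons, had 4 and 0 counts in control and 1169 and 1147 with CM-1758. ADGRV1, a large adhesion receptor, had 9 and 2 counts in control and 2430 and 2180 with CM-1758, 408-fold higher by mean CPM (log2 fold change 8.66 ± 0.32 SE, edgeR adjusted p = 2.5e-10). VGF, the precursor of neuropeptides stored in secretory granules, was the most abundant of this group. It had 38 and 54 counts in control and 13539 and 10748 with CM-1758, 260-fold higher by mean CPM (log2 fold change 8.02 ± 0.27 SE, edgeR adjusted p = 2.1e-10). CCK, which encodes the peptide hormone cholecystokinin, went from 6 and 7 counts to 2156 and 1789, and SESN3, a stress-inducible sestrin, from 4 and 0 to 789 and 698. AZGP1, a secreted glycoprotein, had no control count and 1074 and 971 treated counts, at least 336-fold higher against a floor of 3 counts per library. HPCAL4, a neuronal calcium sensor, had 2 and 0 control counts and 1024 and 812 treated counts, at least 301-fold higher. ZCCHC12 (454-fold), TEX15 (291-fold) and the noncoding RNA LINC01511 (at least 301-fold) followed the same pattern, with 5 counts or fewer in each control library.

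A second group of risers gained a large share of the library from a level that was already detectable. ANKRD1, a muscle ankyrin-repeat protein and a common target of YAP, had 724 and 992 counts in control and 17996 and 21714 with CM-1758, 22.9-fold higher (log2 fold change 4.52 ± 0.26 SE, edgeR adjusted p = 8.7e-09). ODC1, the first enzyme of polyamine synthesis, had 3738 and 4712 counts in control and 28062 and 16252 with CM-1758, 5.15-fold higher. NEAT1, the RNA scaffold of paraspeckles, had 9907 and 16158 counts in control and 40707 and 67666 with CM-1758, and its groups did not overlap although its treated libraries differed. The nuclear RNA MALAT1 had the largest gain in share, from 107433 and 117358 counts to 227339 and 237731, with a log2 fold change of 1.03 ± 0.26 SE. Its call was lost when any of the 4 TCCSUP libraries was left out, with log2 fold changes from 0.96 to 1.09.

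Of the 12 genes with the lowest ratios, 5 were interferon-induced, 1 was contractile (ACTG2), 1 was a fibrillar collagen (COL3A1), and 5 belonged to none of the lists. B3GALT2, a galactosyltransferase, had 217 and 360 counts in control and 0 in both treated libraries, at least 97.1-fold lower, and DESeq2 with all lines in 1 model did not call it (adjusted p = 0.065). SAMD9L, an interferon-induced restriction factor, had 3254 and 2368 counts in control and 26 and 44 with CM-1758, 81.1-fold lower. DHRS3, which reduces retinal, had 2200 and 2248 counts in control and 41 and 45 with CM-1758, 52.4-fold lower (log2 fold change -5.71 ± 0.24 SE, edgeR adjusted p = 7.3e-10). PDCD1LG2, which encodes the immune checkpoint ligand PD-L2, had 973 and 886 counts in control and 10 and 28 with CM-1758, 49.1-fold lower. The lysosomal peptide transporter SLC15A3 (58.2-fold lower) and HYI (48.5-fold lower), a predicted hydroxypyruvate isomerase, also belonged to this group. Genes of this group were picked among those without overlap between groups, so the separation of their libraries follows from the choice.

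Matrix genes made up 4.10% and 3.87% of the counts in the control libraries and 1.09% and 0.949% in the treated ones. The matrix lists, which were written with the loss of matrix genes in this line already known, hold 138 collagens, glycoproteins, proteoglycans and laminins, of which 128 passed the filter on low counts. Of these, 51 fell and 29 rose, with a median log2 fold change of -0.29 against 0.20 over all tested genes. Directions differed with level, as over all genes: at a mean of 5 CPM or more in TCCSUP, 48 of 70 genes fell and 5 rose (median -1.71), and below it 24 of 58 rose and 3 fell. Over all tested genes, 3393 of 11799 fell and 2220 rose at that level, with a median of -0.13, and 2820 of 9498 rose and 280 fell below it. Scaling by library size alone brought the median over all 128 genes to -0.02. The 10 untested members had 9 counts or fewer in every TCCSUP library.

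Among the fibrillar collagens, which form the banded fibres of connective tissue, the 4 most abundant chains fell. COL1A1 and COL1A2, the chains of type I collagen, had 22633 and 28203 and then 127813 and 139687 counts in control. With CM-1758 COL1A1 had 2679 and 2487 counts, 9.97-fold lower, and COL1A2 had 7289 and 6095, 20.3-fold lower (log2 fold change -4.34 ± 0.25 SE, edgeR adjusted p = 9.3e-09). COL5A2, a chain of type V collagen, which nucleates type I fibrils, had 123316 and 126612 counts in control and 5911 and 4199 with CM-1758, 25.2-fold lower. COL3A1, the chain of type III collagen found in reticular fibres, had 15971 and 17854 counts in control and 270 and 212 with CM-1758. Its fall was 71.3-fold by mean CPM, with a log2 fold change of -6.15 ± 0.22 SE (edgeR adjusted p = 3.9e-10). These 4 were the only fibrillar collagens of 11 tested that fell, and 5 others rose from low levels. COL5A3 went from 113 and 102 counts to 1710 and 1705, COL11A2 from 20 and 19 to 215 and 187, and COL24A1 from 5 and 3 to 87 and 126. COL5A1 and COL2A1 rose too, from 9 counts or fewer in each control library, so the median of the list was 2.29 while its share of library counts went from 1.03% and 1.09% to 0.0769% and 0.0681%. That median was -3.22 with 10 counts required in every TCCSUP library, which removes the collagens that are low in control, and 1.31 without control replicate 1.

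Of 31 other collagens tested, 7 fell and 7 rose (22.6% each), near the 17.2% and 23.7% of all tested genes. COL12A1, which binds the surface of collagen fibrils, fell 6.20-fold from 38296 and 42091 counts to 7345 and 5825. COL14A1, of the same fibril-associated class, went the other way, from 19 and 22 counts to 1622 and 1247, 68.9-fold higher (edgeR adjusted p = 2.7e-08). The falls of COL4A2 and COL6A1, chains of basement membrane and microfibrillar collagens, were lost with scaling by library size alone (COL6A1 log2 fold change -0.81).

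**Figure D2:**
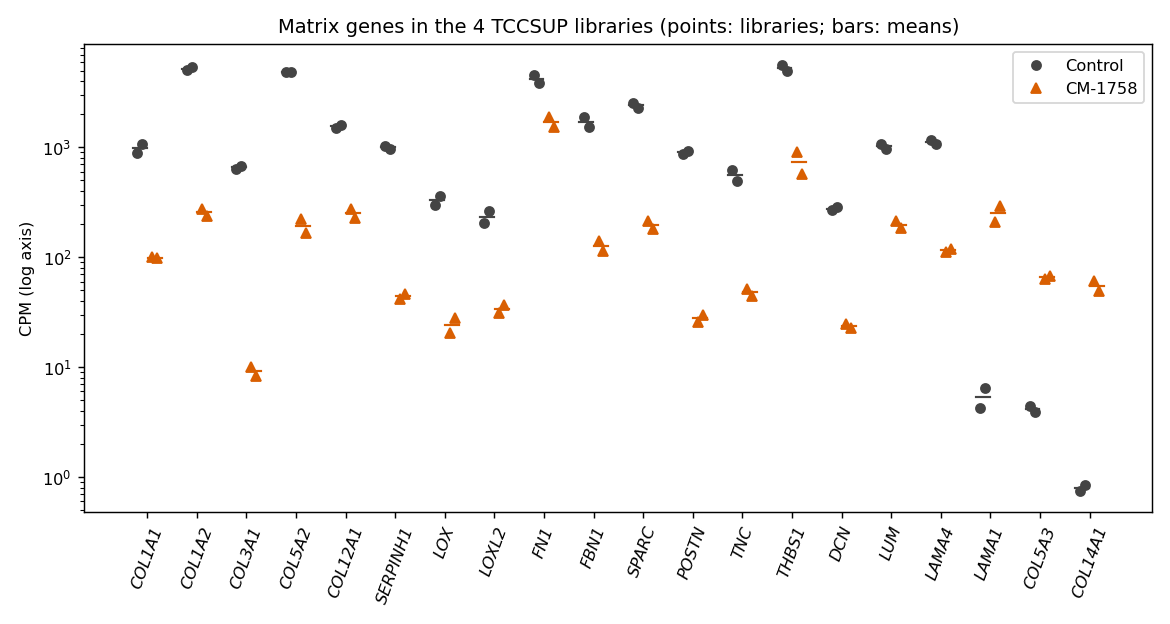
CPM (vertical axis, log scale) of 20 matrix and collagen-processing genes in each TCCSUP library; circles are the control libraries, triangles the CM-1758 libraries and bars their means (n = 2 each). In 17 genes both treated libraries lie below both controls, most of all in COL3A1, and in LAMA1, COL5A3 and COL14A1 they lie above.

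Genes that fold, modify and cross-link collagen fell with it. Of 32 tested, 19 fell and 3 rose, with a median of -1.38, and at a mean of 5 CPM or more 18 of 25 fell and 0 rose. SERPINH1, the collagen chaperone HSP47, had 26125 and 25107 counts in control and 1113 and 1177 with CM-1758, 22.7-fold lower. LOX, a lysyl oxidase that starts collagen cross-links, had 7493 and 9493 counts in control and 547 and 706 with CM-1758 (13.7-fold lower), and LOXL2, a relative, fell 6.91-fold. BMP1, the protease that cleaves the C-terminal propeptide of procollagens, fell 6.16-fold (log2 fold change -2.62 ± 0.14 SE, edgeR adjusted p = 4.0e-09). P3H3, CRTAP, PLOD3 and FKBP10, which act in collagen hydroxylation and folding, fell with log2 fold changes between -2.92 and -2.43. Both hydroxylase subunits P4HA1 (-1.64) and P4HB (-1.31) fell less. The 3 genes that rose, TLL2, ADAMTS2 and PCOLCE2, had few control counts: TLL2 had 0 and 11 and PCOLCE2 had 3 and 0.

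Of 57 matrix glycoproteins, 30 fell (52.6%) and 11 rose (19.3%), against 17.2% and 23.7% of all tested genes. Their median log2 fold change was -1.27. POSTN (periostin, made by activated fibroblasts) had 21885 and 24403 counts in control and 694 and 763 with CM-1758, 32.2-fold lower. FBN1, the core of elastic microfibrils, had 47885 and 39791 counts in control and 3738 and 2879 with CM-1758, 13.5-fold lower. SPARC, a collagen-binding protein, fell 12.3-fold and IGFBP5, an IGF-binding protein held in the matrix, 22.0-fold. FN1 (fibronectin) fell less, from 116236 and 101074 counts to 50507 and 38837, 2.48-fold lower, and THBS1 (thrombospondin-1) from 141328 and 128389 to 24114 and 14537, 7.13-fold lower. Of the 11 that rose, 10 had a mean under 5 CPM. EMILIN2, an elastin-associated glycoprotein, had no control count and 48 and 62 treated counts, and FBLN5 had no control count and 35 and 33.

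Among 17 tested proteoglycans 6 fell (35.3%) and 4 rose (23.5%), against 17.2% and 23.7% of all tested genes. DCN (decorin) had 6858 and 7416 counts in control and 665 and 580 with CM-1758, and LUM (lumican) 27166 and 25439 in control and 5713 and 4659 with CM-1758. Both are small leucine-rich proteoglycans that bind collagen fibrils, and they fell 11.6-fold and 5.16-fold. VCAN (versican), a large hyaluronan-binding proteoglycan, fell 8.18-fold (log2 fold change -3.03 ± 0.20 SE). Among 12 laminins, the trimeric proteins of basement membranes, LAMA4 and LAMA1 moved in opposite directions. LAMA4 went from 29426 and 28198 counts to 3011 and 3018, 9.70-fold lower, while LAMA1 went from 107 and 170 to 5645 and 7363, 46.6-fold higher (log2 fold change 5.54 ± 0.33 SE, edgeR adjusted p = 1.1e-08). LAMB1 and LAMC1, which can assemble with either chain, had log2 fold changes of -1.68 and -1.74.

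The matrix loss differed between the lines. The test of the difference itself (TCCSUP minus the mean response of the other 3 lines, adjusted p under 0.01 and a difference beyond 2) put 34 of 128 matrix genes below the other lines (3.15% of all tested genes) and 5 above (2.51%). The medians of the list were -0.29 in TCCSUP, 0.53 in 253J, 0.61 in J82 and 1.46 in RT112. COL1A2 had a mean of 5203 CPM in TCCSUP control, 249 CPM in J82 control and 0.0383 and 0.116 CPM in 253J and RT112 control, so it was hardly measurable in the last 2. In J82 it had a log2 fold change of -0.87, and the difference of TCCSUP from the mean of the others was -5.03 ± 0.57 SE (edgeR adjusted p = 1.6e-05). COL3A1 was higher in J82 control (3078 CPM) than in TCCSUP control (658 CPM), and its log2 fold change was -0.81 in J82 against -6.15 in TCCSUP. COL1A1 had log2 fold changes of 2.27 in J82, 2.18 in RT112 and -0.76 in 253J. COL3A1 had 0 CPM in 253J control, and differences from lines at or near 0 depend on the prior count. FN1 had log2 fold changes of 1.79 in J82 and 0.79 in RT112, and its difference was -2.12 ± 0.20 SE. Among collagen-processing genes 6 of 32 were below the other lines, and the difference of SERPINH1 was -0.83 ± 0.23 SE, short of the limit (edgeR adjusted p = 0.017). LOX differed more, by -4.56 ± 0.46 SE. Although its list median was above 0, 253J also lost matrix genes. Its log2 fold changes were -2.91 for SPARC, -2.49 for VCAN, -2.14 for THBS1 and -1.92 for FBN1. LAMB1 (-2.07), COL4A2 (-2.27) and P3H3 (-3.36) fell more in 253J than in TCCSUP.

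**Figure D3:**
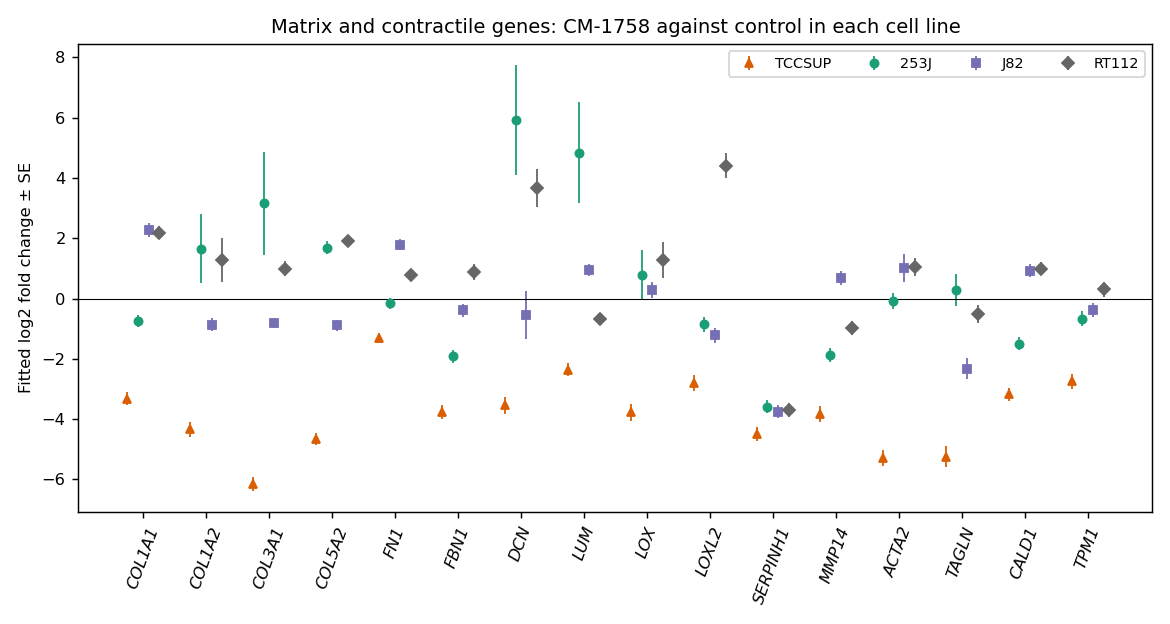
Fitted log2 fold change of CM-1758 against control, with SE, of 16 matrix and contractile genes in the 4 lines (n = 2 libraries per group). The genes drawn were picked among those that fell in TCCSUP, and the TCCSUP triangles lie lowest for every gene shown. LAMB1, COL4A2, P3H3 and ITGB5, which are not drawn, fell more in 253J than in TCCSUP. SERPINH1 lies between -4.50 (TCCSUP) and -3.59 (253J), and wide bars mark genes with few counts in a line.

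Receptors, proteases and growth factors around the matrix moved in both directions. Of 25 integrins, 11 fell (44.0%) and 6 rose (24.0%), against 17.2% and 23.7% of all tested genes. ITGA5, the fibronectin receptor chain, had 39229 and 37197 counts in control and 7083 and 6654 with CM-1758, 5.65-fold lower, and ITGA11, a collagen receptor chain, fell 6.32-fold. ITGB1, the beta chain they share, fell 2.21-fold from 194545 and 176850 counts to 97224 and 73703. The leukocyte integrins ITGAM, ITGAX and ITGAL rose from low levels, with 37 counts in each treated library for ITGAM and 0 in control. Of 35 matrix proteases and inhibitors, 10 fell (28.6%) and 9 rose (25.7%), against 17.2% and 23.7% of all tested genes. MMP14, the membrane-bound collagenase, had 17645 and 16908 counts in control and 1172 and 1297 with CM-1758, 14.2-fold lower, and FAP, a fibroblast surface protease, had 2274 and 2163 and then 107 and 173. DESeq2 with all lines in 1 model left FAP just short of the threshold (adjusted p = 0.011). MMP13 (20 and 28 counts in control, 254 and 197 with CM-1758) and MMP17 (172 and 228, then 1054 and 927) rose.

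In the TGF-beta pathway, which drives matrix genes in fibroblasts, 8 of 29 genes rose (27.6%) and 6 fell (20.7%). Both shares were near those of all tested genes, 23.7% and 17.2%. The ligand TGFB2 had 16597 and 14494 counts in control and 856 and 921 with CM-1758, 17.7-fold lower (log2 fold change -4.15 ± 0.22 SE, edgeR adjusted p = 3.7e-09). The ligand TGFB1 was at 375 and 383 counts in control and 315 and 354 with CM-1758, with a log2 fold change of -0.20 that did not pass. The receptor TGFBR1 fell 2.14-fold and the signal transducer SMAD3 2.41-fold, while the co-receptor TGFBR3 rose 9.15-fold. ID1 and ID2, inhibitors of bHLH factors that BMP signals induce, rose 5.73-fold and 22.2-fold.

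Actin and contractile genes were among the most uniform lists. Of 34 tested, 27 fell and 1 rose, and the medians were -1.78 in TCCSUP, -0.02 in 253J, -0.40 in J82 and 0.29 in RT112. ACTA2, the smooth-muscle actin of myofibroblasts, had 2092 and 2213 counts in control and 54 and 57 with CM-1758, 39.3-fold lower. TAGLN (transgelin), which stabilises actin filaments, had 9040 and 10269 counts in control and 327 and 189 with CM-1758, 38.2-fold lower. ACTG2, the enteric smooth-muscle actin, had 4994 and 4762 and then 158 and 80, and DESeq2 with all lines in 1 model gave it an adjusted p of 0.010, at the limit. CALD1, TPM2 and TPM1, which regulate actomyosin, fell with log2 fold changes of -3.18, -3.27 and -2.75, and cytoplasmic ACTB fell 3.94-fold. VIM was the only member that rose. SRF, the factor that drives many of these genes, fell 2.30-fold, and its coactivator MRTFA had 628 and 626 counts in control and 681 and 539 with CM-1758. The response was below the other lines in 8 of 34 genes (3.15% of all tested genes) and above in 0 (2.51%). Among the 8 were ACTA2 (difference -5.96 ± 0.33 SE), TAGLN (-4.39 ± 0.39 SE) and CALD1 (-3.33 ± 0.25 SE). Control cells of 253J, J82 and RT112 had little ACTA2 (3.91, 0.295 and 1.32 CPM), against 83.8 CPM in TCCSUP. TAGLN had 0.816, 16.3 and 19.8 CPM there against 375 CPM, and CALD1 166, 331 and 16.9 CPM against 681 CPM.

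SRF binds the CArG box, and 8 of the 30 contractile genes with a promoter in the RefSeq table (26.7%) held one within the 250 bases before a start, on either strand, against 1.5% of the 14270 tested genes with a promoter. Among matrix genes the share was 1 of 93 (1.08%). Both windows below, of GRCh38.p14 and read 5′ to 3′ on the gene's strand, have CArG boxes in capitals. Their genes are members of the list that fell and held the box. A match describes the letters and is not evidence of binding, and a link of the box to the response was not tested.
ACTG2, + strand, chr2:73892758-73893007: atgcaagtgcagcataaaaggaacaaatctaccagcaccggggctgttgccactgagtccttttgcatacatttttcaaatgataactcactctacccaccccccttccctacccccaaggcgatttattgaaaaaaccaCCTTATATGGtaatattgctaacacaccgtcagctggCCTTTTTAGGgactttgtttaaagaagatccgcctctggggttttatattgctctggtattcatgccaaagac
TPM4, + strand, chr19:16067288-16067537: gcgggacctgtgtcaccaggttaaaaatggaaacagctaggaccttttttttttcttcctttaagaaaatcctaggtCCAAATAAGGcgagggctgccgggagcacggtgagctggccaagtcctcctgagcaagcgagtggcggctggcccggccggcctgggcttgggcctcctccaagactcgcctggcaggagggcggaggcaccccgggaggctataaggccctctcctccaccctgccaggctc

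Of the factors and adhesion genes of the epithelial-mesenchymal transition, 9 of 29 fell (31.0%) and 4 rose (13.8%). Over all tested genes 17.2% fell and 23.7% rose. The mesenchymal cadherin CDH2 had 16077 and 13870 counts in control and 6499 and 5165 with CM-1758, and the factors ZEB2 and TWIST1 fell 3.10-fold and 2.33-fold. The desmosomal plakin DSP rose 15-fold, from 43 and 31 counts to 618 and 512. The epithelial cadherin CDH1 had 522 and 356 counts in control and 528 and 318 with CM-1758, so its groups overlapped. YAP and TEAD targets were also divided, with 11 of 25 falling (44.0%) and 2 rising (8.0%). AXL, a receptor tyrosine kinase, fell 10.6-fold and the coactivator YAP1 4.06-fold, while ANKRD1 rose. The classic targets CCN1 and CCN2 did not pass, with edgeR adjusted p = 0.34 and 0.012.

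Interferon-induced genes fell almost throughout. Of 78 tested, 61 fell and 1 rose, and the medians were -1.72 in TCCSUP, -2.46 in J82, -0.51 in 253J and -0.11 in RT112. RSAD2 (viperin, an antiviral enzyme) had 4456 and 3192 counts in control and 82 and 75 with CM-1758, 49.6-fold lower. IFIT3, which binds viral RNA complexes, had 4626 and 4795 counts in control and 118 and 117 with CM-1758, 40.6-fold lower. MX1, a GTPase that blocks viral replication, had 8352 and 6857 and then 369 and 338. IFI44L, XAF1 and OAS2 fell 46.5-fold, 44.4-fold and 42.6-fold. IRF9 and STAT2, which belong to the factor that binds these promoters, fell 4.46-fold and 1.65-fold. GBP5 was the member that rose, from 27 and 23 counts to 164 and 107. The difference from the mean of the other lines put 14 of 78 genes below (3.15% of all tested genes) and 0 above (2.51%). Of the 14, 4 also differed from each of the 3 lines. Among the 14, RSAD2 had 1.23, 280 and 0.451 CPM in 253J, J82 and RT112 control, against 149 CPM in TCCSUP. OAS2 had 0.151, 323 and 2.03 CPM there, against 47.4 CPM.

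That factor binds the interferon-stimulated response element, searched as GAAANNGAAA on both strands in the same windows. It was present in 32 of 60 interferon-induced genes (53.3%), in 8 of 17 genes of MHC class I presentation (47.1%) and in 3.49% of tested genes with a promoter. Mitotic and DNA replication genes held it in 0 of 52 and 0 of 48. Among interferon-induced genes that fell the share was 28 of 47 (59.6%), and a link of the element to the response was not tested. The windows of 3 genes that fell strongly are printed with the element in capitals, where TTTCNNTTTC is the same element on the other strand.
RSAD2, + strand, chr2:6877527-6877776: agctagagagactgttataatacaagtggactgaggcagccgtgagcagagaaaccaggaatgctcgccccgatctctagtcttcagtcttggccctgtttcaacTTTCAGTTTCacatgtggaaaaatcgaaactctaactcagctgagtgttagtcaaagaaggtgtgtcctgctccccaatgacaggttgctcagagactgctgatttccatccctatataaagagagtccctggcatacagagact
IFI44L, + strand, chr1:78620198-78620447: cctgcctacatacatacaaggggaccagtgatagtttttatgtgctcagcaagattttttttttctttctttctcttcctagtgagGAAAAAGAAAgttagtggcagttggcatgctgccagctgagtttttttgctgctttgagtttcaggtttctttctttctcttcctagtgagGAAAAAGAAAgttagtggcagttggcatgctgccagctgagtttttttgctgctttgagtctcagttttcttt
IFIT3, + strand, chr10:89327747-89327996: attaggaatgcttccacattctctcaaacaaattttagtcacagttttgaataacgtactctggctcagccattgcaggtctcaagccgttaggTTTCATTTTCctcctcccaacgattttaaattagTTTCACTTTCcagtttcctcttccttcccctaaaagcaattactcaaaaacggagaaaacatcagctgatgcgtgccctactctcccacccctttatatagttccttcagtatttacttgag

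Class I antigen presentation, which shows peptides to CD8 T cells, fell as a block in TCCSUP: 20 of 21 tested genes fell, with a median of -1.92. B2M, the invariant chain, had 87282 and 75103 counts in control and 26423 and 18881 with CM-1758, 3.65-fold lower. HLA-B and HLA-C, whose reads may be split between near-identical genes, fell 3.74-fold and 4.24-fold. The immunoproteasome subunit PSMB10 fell 12.2-fold and the trimming peptidase ERAP1 8.80-fold, and the peptide transporter TAP1 4.22-fold. HLA-F was the member that rose, from 52 and 73 counts to 442 and 481. The medians of the other lines were -1.67 in 253J, -1.44 in J82 and -0.66 in RT112. Of the 21 responses, 1 was below the other lines beyond a difference of 2 (3.15% of all tested genes). With no limit on the size of the difference, 6 were below (8.25%) and 0 above (5.88%).

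Mitotic genes fell, while most DNA replication genes did not pass. Of 62 mitotic genes, 61 fell, with a median log2 fold change of -2.19, and none rose. KIF20A, a kinesin of cytokinesis, had 4753 and 5395 counts in control and 355 and 273 with CM-1758, 16.4-fold lower. CCNB2, a mitotic cyclin, had 1804 and 2009 and then 173 and 189 (10.7-fold lower), and the mitotic kinase PLK1 735 and 856 and then 88 and 96. CENPA, the histone of centromeres, fell 8.14-fold. CKS2, a CDK subunit, was the member that did not pass, with 1338 and 1476 counts in control and 1948 and 1620 with CM-1758. Among 58 DNA replication genes, 12 fell (20.7%) and 8 rose (13.8%), against 17.2% and 23.7% of all tested genes. Their median was -0.13, or 0.18 with scaling by library size alone. RRM2 and TYMS, which supply deoxynucleotides, fell 3.41-fold and 3.11-fold. The helicase subunit MCM2 had 2585 and 2953 counts in control and 4053 and 4119 with CM-1758, with a log2 fold change of 0.54 that did not pass. CCNE1, the cyclin that opens S phase, rose 2.04-fold, and SLBP, which binds histone mRNA, 2.22-fold.

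The medians of the replication genes were lower in the other lines, at values of -1.70 in 253J, -0.68 in J82 and -0.80 in RT112. With no limit on the size of the difference, 31 of 58 replication genes were above the other lines (5.88% of all tested genes) and 0 below, while 23 of 62 mitotic genes were below (8.25%) and 0 above. The mitotic medians were -2.35 in 253J, against -2.19 in TCCSUP, -1.16 in J82 and -0.41 in RT112, and the difference tested is from the mean of these 3 lines. For MCM2 the difference was 1.89 ± 0.20 SE (edgeR adjusted p = 8.2e-06) and for KIF20A -1.59 ± 0.29 SE (edgeR adjusted p = 0.0010). No gene of either list differed by more than 2.

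**Figure D4:**
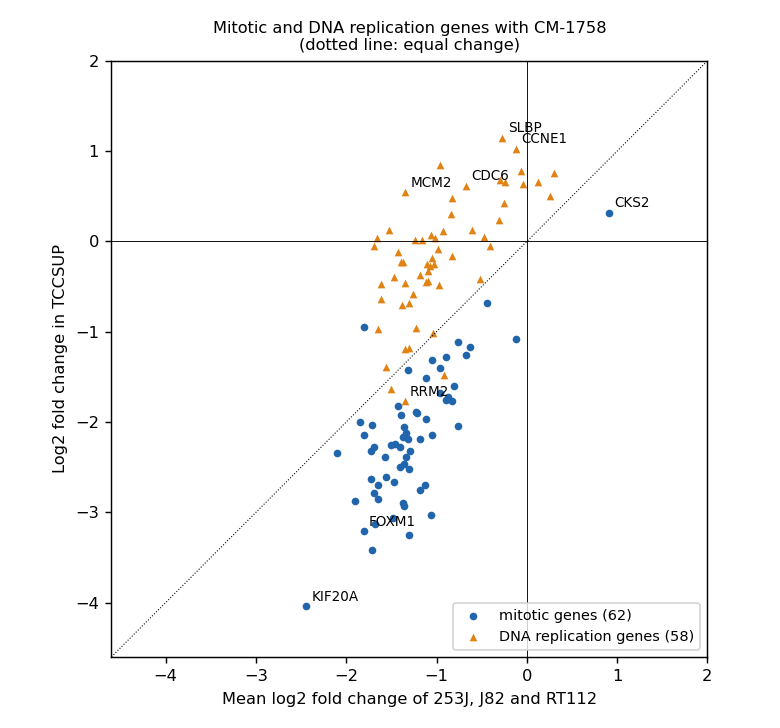
Log2 fold change in TCCSUP (vertical axis) against the mean log2 fold change of 253J, J82 and RT112 (horizontal axis) for 62 mitotic genes (circles) and 58 DNA replication genes (triangles), with equal change as the dotted line. Of the replication genes 55 lie above the line, and of the mitotic genes 61 lie below it.

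The promoters of both groups differ in a short element called CHR, searched as TTTGAA on both strands. It was found in 28 of 52 mitotic genes (53.8%), in 1 of 48 DNA replication genes (2.08%) and in 13.0% of tested genes with a promoter. The CCAAT box was found in 40 of 52 mitotic genes (76.9%), 28 of 48 replication genes (58.3%) and 40.9% of tested genes. Both together were in 44.2% of mitotic genes and 5.00% of tested genes. Among mitotic genes that fell, CHR was in 27 of 51 (52.9%), much as in the whole list. These shares describe the lists, and a link of the elements to the response was not tested. In the windows of 3 strongly lower genes below, CHR elements and CCAAT boxes are in capitals, with ATTGG as the CCAAT box on the other strand.
CCNB2, + strand, chr15:59104896-59105145: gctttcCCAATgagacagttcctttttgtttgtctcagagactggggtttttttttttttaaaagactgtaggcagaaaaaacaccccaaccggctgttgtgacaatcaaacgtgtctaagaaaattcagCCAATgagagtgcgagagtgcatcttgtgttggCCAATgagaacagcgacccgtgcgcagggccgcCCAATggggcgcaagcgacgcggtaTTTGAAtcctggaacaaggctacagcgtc
PLK1, + strand, chr16:23678639-23678888: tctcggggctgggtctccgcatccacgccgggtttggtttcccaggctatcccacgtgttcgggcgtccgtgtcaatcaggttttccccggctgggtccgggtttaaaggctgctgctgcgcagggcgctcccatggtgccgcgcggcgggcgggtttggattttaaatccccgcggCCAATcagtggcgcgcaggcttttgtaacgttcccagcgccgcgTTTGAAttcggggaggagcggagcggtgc
CENPA, + strand, chr2:26785806-26786055: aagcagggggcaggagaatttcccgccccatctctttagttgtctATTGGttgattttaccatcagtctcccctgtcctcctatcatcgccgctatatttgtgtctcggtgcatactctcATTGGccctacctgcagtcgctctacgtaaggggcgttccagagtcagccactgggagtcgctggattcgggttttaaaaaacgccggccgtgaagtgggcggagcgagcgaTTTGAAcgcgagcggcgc

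Among regulators of the cell cycle entry, CDKN1A (the CDK inhibitor p21) had 923 and 1092 counts in control and 4695 and 4755 with CM-1758, 4.63-fold higher (log2 fold change 2.21 ± 0.26 SE, edgeR adjusted p = 5.0e-06). CDKN2A, which encodes the inhibitors p16 and ARF, had 2157 and 2144 counts in control and 415 and 414 with CM-1758, 5.26-fold lower. The G1 cyclin CCND1 fell 2.87-fold. Of 37 apoptosis regulators, 8 rose (21.6%) and 12 fell (32.4%), against 23.7% and 17.2% of all tested genes. The BH3-only proteins BIK, BCL2L11 and BBC3, which promote cell death, rose 20.4-fold, 3.98-fold and 3.60-fold, with BCL2L11 at 222 and 235 counts in control and 1052 and 799 with CM-1758. CFLAR, an inhibitor of caspase-8, fell 4.32-fold and CASP1, the inflammatory caspase, 14.4-fold. Members that promote cell death fell too: BID, also BH3-only, 4.01-fold, FAS 3.29-fold, TNFSF10 2.89-fold and BOK 2.60-fold.

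Of the 11 zinc-dependent HDAC genes themselves, HDAC7 fell 5.14-fold, from 1083 and 1117 counts to 193 and 240, and HDAC11 rose 3.28-fold, from 105 and 95 to 366 and 302. The class I enzymes HDAC1 and HDAC2 had log2 fold changes of 0.04 and -0.25 that did not pass. HDAC3 rose 1.79-fold, a call that was lost without TCCSUP control replicate 1 or without treated replicate 1. Among 8 tested linker histone genes, H1-5 fell 5.69-fold.

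Neuronal and synaptic genes, which are silent in most epithelial cells, rose more widely than any other list here. Of 92 tested, 53 rose and 6 fell, with a median log2 fold change of 3.59, or 2.24 when members within the floor enter as bounds. Requiring 10 counts in every TCCSUP library left 17 that rose and 5 that fell, with a median of 0.44. SYP (synaptophysin, a synaptic vesicle protein) had 21 and 36 counts in control and 1358 and 1058 with CM-1758, 41.8-fold higher. UNC13A, which primes vesicles, had 11 and 16 and then 1094 and 995, and the calcium sensor SYT1 60 and 62 and then 1054 and 891. The granins CHGA and CHGB rose as well, CHGA from 0 to 119 and 91 counts. At a mean of 5 CPM or more, 17 of 34 rose and 6 fell. Among those with high control counts, UCHL1, a neuronal deubiquitinase, fell 2.10-fold from 7429 and 8486 counts, and SCG2, a granin, had 4995 and 4728 counts in control and 3968 and 3567 with CM-1758. The medians were 2.01 in 253J, 2.80 in J82 and 4.65 in RT112. Of the 92 genes, 5 were above the other lines (2.51% of all tested genes) and 10 below (3.15%).

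Most genes of the secretory machinery fell, fewer of the sterol genes did, and lysosomal genes moved both ways. Of 30 genes of the secretory pathway and ER chaperones, 18 fell and 2 rose, with a median of -0.79. XBP1, a factor of the unfolded protein response, had 7134 and 6293 counts in control and 1178 and 1268 with CM-1758, 5.57-fold lower, and the chaperone HSP90B1 50857 and 52548 and then 12843 and 10853. DDIT3, the stress factor CHOP, rose 2.06-fold. Of 22 cholesterol synthesis genes 9 fell and 0 rose, with a median of -0.33, or -0.017 with scaling by library size alone. Of 38 lysosomal genes 10 rose and 10 fell (26.3% each, against 23.7% and 17.2% of all tested genes). The acid glucosidase GAA was up 3.99-fold and the protease CTSS down 14.3-fold.

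Across all genes, 534 responses (2.51%) were above and 671 (3.15%) below the mean of the other lines, and 342 (1.61%) and 303 (1.42%) also differed from each of the 3 lines in the same direction. Of the strongly higher genes in TCCSUP, 1020 were strongly higher in no other line and 337 in all 3, and of the strongly lower genes 393 and 23. The shares of strongly higher and lower genes were 9.43% and 3.5% in 253J, 8.81% and 1.24% in J82, and 11.4% and 1.39% in RT112. ABCB1, the efflux pump P-glycoprotein, had no count in TCCSUP control and 352 and 276 with CM-1758, at least 103-fold higher, and its log2 fold change was -0.34 in 253J, 1.47 in J82 and 6.33 in RT112. ATRNL1, an attractin-like membrane protein, had no control count and 441 and 391 treated counts in TCCSUP, a treated mean of 15.9 CPM. Control cells of 253J, J82 and RT112 had 33.9, 9.10 and 0.284 CPM of it. At the other end, MRVI1, a regulator of calcium release in smooth muscle, had 484 and 422 counts in control and 8 and 14 with CM-1758, while it had 0 CPM in J82 control and 0.417 CPM in J82 with CM-1758. Some large differences came from rises elsewhere: CES1, a carboxylesterase, had 1166 and 1006 counts in TCCSUP control and 994 and 879 with CM-1758, a log2 fold change of -0.24 that did not pass, but had 0 CPM in the control cells of the other 3 lines.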

How the data were processed

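RNA was sequenced from 4 TCCSUP libraries among 16 of 4 bladder cancer lines, from stranded total RNA libraries depleted of ribosomal RNA. The authors deposited raw counts, whole numbers of reads per gene symbol, without normalization. The submitters' processing notes name HISAT2, StringTie and GRCh37, without versions or roles, and the tool that counted reads is not given in the sources used here. All columns were matched to samples by label. The filterByExpr rule kept 21297 of 35993 symbols, which were TMM-normalized and fitted with edgeR 4.0.16 in R 4.3.3, with all groups sharing 1 estimate of the spread (common BCV 0.153, 8 residual degrees of freedom). Calls used thresholds of 0.01 for the adjusted p and 2 for the log2 fold change, and SE was taken from the F statistic of each contrast. Folds are ratios of mean CPM, with a floor of 3 counts per library. The members and gene lists were chosen with earlier results of these data known.

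The genes named were the 12 highest and 12 lowest ratios among strong changes without overlap between groups, at 10 CPM or more in the higher group. They also included the 6 largest gains and 6 largest losses of library share. The 6 highest and 6 lowest differences from the other lines were added, with up to 6 members per list and direction at 5 CPM or more. Members whose role defines a list and genes the study names were also taken. Members under 5 CPM, or that did not pass, were named after their values were seen, and some genes given by these rules are not reported here. RefSeq promoters (GRCh38.p14) were searched for motifs in the 250 bases before the start, any window of a gene counting, and no coordinates were converted between builds. Total counts of 22506431 to 28809324 make counting error small for all but the lowest genes. On simulated counts for 20494 genes, 193 of 200 genes changed 8-fold in TCCSUP were recovered with 2 false calls. The changed genes were drawn away from the lowest counts and split evenly between up and down. The simulation therefore does not cover genes nearly silent in control or a mostly upward response. Alternatives were RLE, library size alone, DESeq2 1.42.0, edgeR on TCCSUP alone, other filters and thresholds, thinning, a replicate block, small noncoding RNA genes left out and each library left out.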

Additional observations from a re-analysis of the deposited data

Results flagged for a closer look

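The test of the difference between TCCSUP and the mean of the other 3 lines found 534 genes above and 671 below. Among genes apart from each line, the log2 difference was 10.98 for ENPP5, 9.69 for ATRNL1, 9.29 for FILIP1, 9.25 for RYR1, 8.87 for ABCB1 and 8.43 for PDE2A, all of which had 0 counts in both TCCSUP control libraries, so these values depend on the prior count and are not folds. Against a floor of 3 counts per library, ENPP5 (a membrane phosphodiesterase family member) was at least 336-fold, FILIP1 (a filamin-binding protein) at least 141-fold, RYR1 (the skeletal-muscle calcium release channel) at least 90.7-fold and PDE2A (a cyclic nucleotide phosphodiesterase) at least 105-fold higher in TCCSUP. Control cells of other lines already had ENPP5 (7.56 CPM in RT112), RYR1 (7.76 CPM in RT112) and PDE2A (10.7 CPM in 253J). FILIP1 was lower there, with 1.69 CPM in J82 control. At the other end the difference was -8.85 for MRVI1, -8.66 for A2M, -8.58 for CNN1, -8.20 for ZNF208, -7.86 for NKAIN4 and -7.81 for CES1. In these 6 genes each of the other lines had under 1 CPM in control, so these values also depend on the prior count. A2M, a protease inhibitor, fell in TCCSUP (log2 fold change -1.58), from 11397 and 14378 counts to 4597 and 4115, and had 0 CPM in the control cells of the other 3 lines. ZNF208, a zinc finger gene, rose in TCCSUP (log2 fold change 2.00), and had 0, 0 and 0.0981 CPM in 253J, J82 and RT112 control and 40.5, 6.61 and 13.4 CPM with CM-1758. CNN1 (calponin, which binds actin) fell 6.66-fold and NKAIN4 19.5-fold in TCCSUP.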

How the results depend on the processing

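No named gene with a call changed direction under the alternatives run, but several list medians changed sign. With library size alone the medians of DNA replication genes (0.18), integrins (0.094), laminins (0.099), matrix proteases and inhibitors (0.21), EMT factors (0.090), YAP and TEAD targets (0.068), CDK inhibitors and cyclin D (0.034), apoptosis regulators (0.13) and lysosomal genes (0.15) turned from below 0 to above it. With 10 counts required in every TCCSUP library the medians of fibrillar collagens (-3.22), other collagens (-0.54) and proteoglycans (-2.11) turned negative, and that of proteoglycans also with DESeq2 (-1.10) or edgeR (-1.12) on TCCSUP alone and, at nearly 0, without treated replicate 1. The median of proteases turned to 0.055 without control replicate 2. Requiring 10 counts in every TCCSUP library, which removes genes silent in control, left 686 strongly higher genes, 3099 that rose, 138 above the other lines and 9 matrix genes that rose, with a matrix median of -1.31. Library size alone left 2367 genes that fell and a matrix median of -0.018. At an adjusted p under 0.05 and a log2 fold change beyond 1, 5117 genes were higher and 2466 lower. The matrix median was -0.79 with DESeq2 on TCCSUP alone, -0.81 with edgeR on TCCSUP alone, -0.24 with RLE and with DESeq2 on all lines, and -0.081 with no filter on low counts. Leaving out 1 TCCSUP library gave 3286 to 3726 genes that rose (3287 without control replicate 1 and 3286 without control replicate 2), 19 to 23 matrix genes that rose (19 without treated replicate 2 and 20 without control replicate 1) and a matrix median between -0.24 and -0.14. The samples share replicate numbers by label, but the correlation of same-numbered deviations was 0.0173 in TCCSUP, so the numbers were not taken to pair cultures. With a replicate block 2497 genes were strongly higher, 702 lower, 4743 rose and 4069 fell. Of 238 named genes, 24 to 33 lost their call when 1 library was left out and 12 with library size alone. Each group holds 2 libraries, so the estimate of error rests on all lines and genes together, and fits without 1 library take the lone library to vary like the other groups.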
